A study of Homo sapiens with 15 samples.

Results

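A set of 9 genes that detect foreign or misplaced nucleic acid, or carry that signal to the nucleus, was followed across all 5 groups of a study of RAS senescence. They were picked by name, through their Ensembl IDs, and are 9 of the 57736 genes of the count table. All 9 matched 1 row each, and all 9 are among the 13516 genes that had enough counts to be tested. They are the sensors CGAS (ENSG00000164430), RIGI (ENSG00000107201) and IFIH1 (ENSG00000115267), the adaptor STING1 (ENSG00000184584), the interferon regulatory factors IRF1 (ENSG00000125347), IRF3 (ENSG00000126456), IRF7 (ENSG00000185507) and IRF9 (ENSG00000213928), and STAT2 (ENSG00000170581). Older symbols are MB21D1 for CGAS, TMEM173 for STING1 and DDX58 for RIGI.

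As background, cGAS binds DNA in the cytosol and makes the messenger cGAMP, which STING1 receives, while RIG-I and MDA5 (the product of IFIH1) bind RNA and signal through MAVS. Both routes reach the kinase TBK1, which activates IRF3 and IRF7 to switch on interferon genes. Secreted type I interferon then acts through its receptor and the JAK kinases on STAT2, which acts with IRF9 in the complex ISGF3 to turn on interferon-stimulated genes, several of these same sensors and factors among them. In senescent fibroblasts, the cGAS and STING1 route is known for feeding the secretion of cytokines.

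The cells were IMR90, human fetal lung fibroblasts, in 5 groups of 3 libraries. Control cells had been given a retrovirus without insert and the siControl siRNA, which targets no gene. The remaining 4 groups carried retroviral RAS, whose isoform the labels do not name, and received the same siControl siRNA (siControl RAS), siRNA to METTL14 with a vector (knockdown), or that siRNA followed by lentivirus encoding METTL14, either wild-type or with the substitution R298P (the add-backs). METTL14 partners METTL3 in the enzyme that methylates adenosine in mRNA (m6A), and R298P is known to lower its activity. The siRNA was first given at day 4 after the retrovirus and RNA was taken 48 hours after the second dose and the lentivirus. The genotype labels speak of knockout and knock-in, whereas the protocols describe siRNA and lentivirus, and the protocols are followed here. Nothing in the labels tells whether replicates are separate cultures, and p-values here may therefore measure technical spread alone.

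Levels are given as CPM, counts scaled to a library's effective size by the TMM method, and differences as log2 values ± SE from edgeR's two-sided quasi-likelihood test, with Benjamini-Hochberg adjustment over all 13516 genes. A gene is said to have changed at an adjusted p under 0.05. Total counts ran from 4917661 to 7763084, so that 1 count stood for 0.136 to 0.203 CPM. METTL14 was at 19.1 to 26.2 CPM in control and siControl RAS libraries, 3.94 to 9.35 in knockdown, 508 to 564 with the wild-type and 892 to 1038 with the R298P add-back. The tags do not separate the cell's own METTL14 from the lentiviral one. All 8 fibroblast markers were tested, and their summed level was 10480 to 10640 CPM in control, 20790 to 21880 in siControl RAS, 17230 to 18070 in knockdown, 19430 to 20750 in wild-type and 18960 to 19970 in R298P libraries. They did not move together. With RAS 6 rose and 2 fell, where 24.0% of all tested genes were called higher and 45.9% in either direction. In the knockdown against siControl RAS 2 rose and 4 fell, where 7.47% were called higher and 8.06% lower. Of 9 epithelial markers, CDH1, KRT5 and KRT14 were at 0 in all libraries and 6 were tested, of which 3 fell and 1 rose with RAS. Their summed level was 138 to 151 CPM in control, 44.9 to 65.9 in siControl RAS, 84.6 to 95.4 in knockdown, 76.4 to 85.7 in wild-type and 69.3 to 80.3 in R298P libraries. Of 6 matched endothelial markers, CDH5 and ERG were at 0 in all libraries and 2 were tested, both higher with RAS. Their list summed to 14.4 to 23.95 CPM in control, 31.7 to 35.5 in siControl RAS, 39.5 to 43.5 in knockdown, 34.95 to 42.8 in wild-type and 42.0 to 46.8 in R298P libraries. The part of these marker differences in the values that follow was not tested. None of 12 leukocyte markers had enough counts for the test, 6 of them (CD3E, ITGAM, LILRA4, CD163 and NKG7 among these) were at 0 in all 15 libraries, and the 12 together made up at most 2.63 CPM in any library. In bulk RNA, fewer cells with a transcript and less of it per cell cannot be told apart.

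The DNA just upstream of these genes is shown because interferon factors bind known letters there and several of the 9 genes moved between groups. RefSeq promoters (GRCh38.p14) were at hand for 5 of the 9, namely RIGI, IFIH1, IRF1, IRF9 and STAT2, and the 250 bases before the start of each were searched on both strands. The interferon-stimulated response element (ISRE), bound by ISGF3 and IRFs, was searched as GAAANNGAAA and the gamma-activated site (GAS), bound by STAT dimers, as TTCNNNGAA. The ISRE letters occurred in 1 of the 5, IFIH1, and in 3.02% of 35116 RefSeq promoters cut to the same 250 bases. The GAS letters occurred in 2 of the 5, IRF1 and IRF9, and in 6.57% of all promoters. The NF-kB consensus occurred in 3 of the 5, RIGI, IFIH1 and IRF1, and in 9.96% of all promoters. The 3 promoters with an ISRE or a GAS match are printed 5′ to 3′ on the strand of the gene, with those matches in capitals and the start site just after the last base. They lie at chr2:162318685-162318934 (minus strand) for IFIH1, chr5:132490774-132491023 (minus strand) for IRF1 and chr14:24161015-24161264 (plus strand) for IRF9.
IFIH1: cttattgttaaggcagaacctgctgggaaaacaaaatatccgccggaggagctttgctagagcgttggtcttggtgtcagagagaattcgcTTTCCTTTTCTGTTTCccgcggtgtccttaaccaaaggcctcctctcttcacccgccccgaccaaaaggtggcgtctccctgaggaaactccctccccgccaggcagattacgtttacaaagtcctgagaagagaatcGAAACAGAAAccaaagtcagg
IRF1: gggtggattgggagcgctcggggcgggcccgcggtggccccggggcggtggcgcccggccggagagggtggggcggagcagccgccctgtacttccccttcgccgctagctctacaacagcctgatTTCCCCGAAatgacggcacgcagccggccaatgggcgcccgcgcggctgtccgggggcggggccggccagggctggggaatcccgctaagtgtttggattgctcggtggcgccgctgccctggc
IRF9: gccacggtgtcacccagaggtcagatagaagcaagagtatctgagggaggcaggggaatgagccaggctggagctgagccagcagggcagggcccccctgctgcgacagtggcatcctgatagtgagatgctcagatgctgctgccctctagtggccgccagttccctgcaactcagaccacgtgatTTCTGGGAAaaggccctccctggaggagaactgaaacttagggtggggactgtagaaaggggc
In IFIH1 the capitals hold 3 matches. A pair that overlap by 4 bases, with leftmost bases at -159 and -153 from the start, read GAAAAGGAAA and GAAACAGAAA on the opposite strand, and the third, at -21, reads GAAACAGAAA on the strand shown. The GAS matches were TTCCCCGAA at -124 in IRF1 and TTCTGGGAA at -63 in IRF9. STAT2 had none of the 3 motifs in this window. A match describes letters and does not show that a factor was bound.

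RAS cells without the knockdown carried more of 7 of the 9 transcripts than control cells. IFIH1 rose most, 7.54-fold, followed by IRF1 at 4.24-fold and IRF7 at 4.19-fold, whereas STAT2, RIGI, STING1 and IRF9 rose between 1.53-fold and 1.74-fold. IRF3 and CGAS were not called. For comparison, 24.0% of all tested genes were called higher and 45.9% were called in either direction, and in the 7 genes every siControl RAS library lay above every control library, as it did for 27.5% of tested genes. The median log2 difference was 0.71 over the 9 genes and -0.0037 over all tested genes.

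Among the RNA sensors, IFIH1, which binds long double-stranded RNA, was at 3.44, 2.14 and 0.499 CPM in the control libraries and 16.5, 14.2 and 15.9 CPM in siControl RAS. The lowest siControl RAS library was far above the highest control library, although the control values rest on 22, 13 and 3 counts. The log2 difference was 2.92 ± 0.40 (adjusted p = 2.25e-07), and 3.53 without control replicate 1. RIGI, which senses RNA with a 5′ triphosphate, started from a higher level, with 36.1, 38.5 and 31.6 CPM in control and 63.3, 63.3 and 47.1 CPM in siControl RAS. Its rise was smaller, 0.71 ± 0.14 (adjusted p = 6.19e-05), again without overlap of the libraries.

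On the DNA route STING1 rose and CGAS was not called. STING1 was at 24.7, 23.6 and 21.6 CPM in control and 33.8, 42.0 and 32.6 CPM in siControl RAS, a log2 difference of 0.63 ± 0.19 (adjusted p = 0.00583) without overlap. CGAS, the enzyme upstream of it, was at 5.63, 10.7 and 15.1 CPM in control, the widest relative spread of the 9 genes in that group except for IFIH1, and at 3.54, 7.31 and 5.17 CPM in siControl RAS. The groups overlapped, and the log2 difference of -0.98 ± 0.44 was not called (adjusted p = 0.0694). CGAS passed the threshold as lower without control replicate 1 (-1.29, adjusted p = 0.0237) or without siControl RAS replicate 2 (-1.27, adjusted p = 0.0465).

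**Figure D1:**
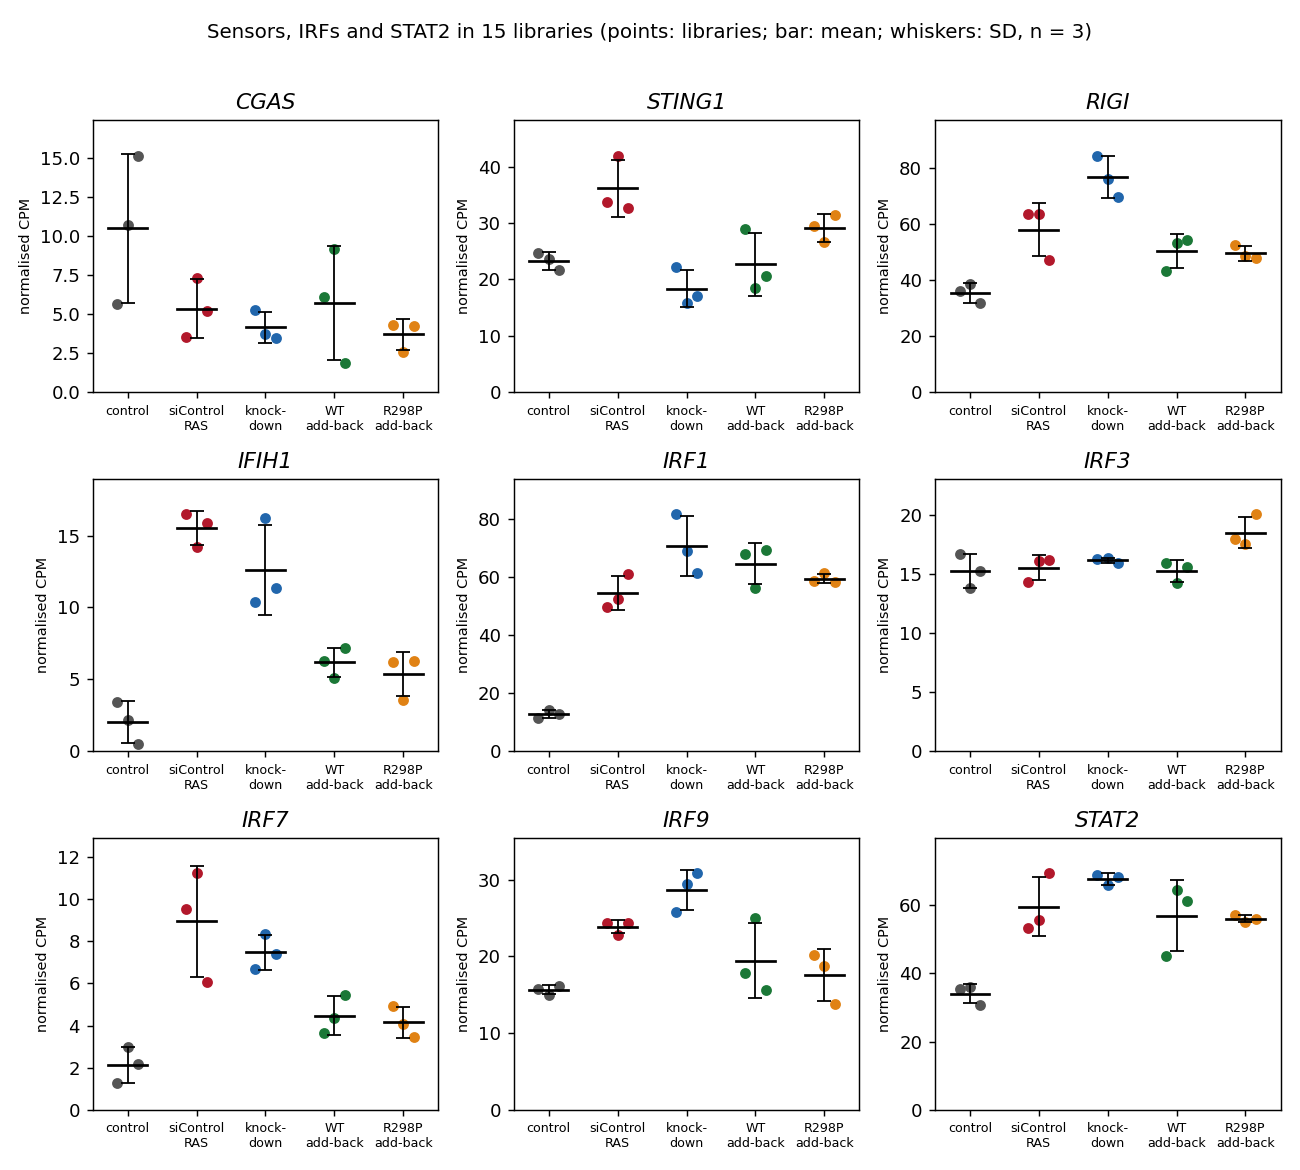
Level of each of the 9 genes (CPM, linear axis from 0) in every library, by group, with the mean and SD of the 3 libraries. IFIH1, IRF1 and IRF7 stand well above control in siControl RAS and knockdown, IFIH1 is lower in both add-backs (3.58 to 7.14 CPM) than in siControl RAS and knockdown (10.4 to 16.5 CPM), STING1 is highest in siControl RAS, and IRF3 stays between 13.8 and 20.1 CPM throughout.

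Of the transcription factors, IRF1, itself induced by interferon and NF-kB, had 11.4, 14.2 and 12.8 CPM in control libraries and 49.7, 52.5 and 61.0 CPM in siControl RAS. The log2 difference was 2.09 ± 0.15 (adjusted p = 7.56e-14), the most precise of the large differences. IRF7, the amplifier of the interferon response, was scarce in control at 1.25, 2.96 and 2.16 CPM and reached 9.54, 11.2 and 6.06 CPM in siControl RAS (2.07 ± 0.42, adjusted p = 9.45e-05). IRF3, which is held in the cytosol until it is phosphorylated, had 13.8 to 16.7 CPM in control and 14.3 to 16.2 CPM in siControl RAS. Its log2 difference was 0.02, with a 95% interval from -0.40 to 0.45.

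IRF9 and STAT2, which act together in ISGF3, were both higher in siControl RAS. IRF9, its DNA-binding subunit, went from 15.8, 14.99 and 16.1 CPM to 24.4, 22.9 and 24.4 CPM (0.61 ± 0.20, adjusted p = 0.0136). STAT2 went from 35.3, 36.1 and 30.8 CPM to 53.4, 55.6 and 69.3 CPM (0.80 ± 0.14, adjusted p = 9.93e-06). None of the 7 calls among the 9 genes was lost under any of the 10 alternatives tried.

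Transcripts of the 9 interferon genes that were looked up were barely seen, and other interferon genes were not looked up. IFNB1, IFNA1, IFNA2, IFNK, IFNG, IFNL1, IFNL2 and IFNL3 had no count in any of the 15 libraries, which allows a level of up to 0.034 CPM over all of them, for counting error only. IFNE, an interferon best known from epithelia of the reproductive tract, had 172 counts in all, at most 26 in a library. Its log2 difference between siControl RAS and control was 2.32 ± 0.95 (adjusted p = 0.0436), and the call was lost without any of the 3 control replicates (adjusted p = 0.168, 0.0626 and 0.0607) and without siControl RAS replicate 1 (0.225) or 2 (0.0547). Of the receptor chains, IFNAR2 was called higher at 0.61 ± 0.22 (adjusted p = 0.0247), a call lost without control replicate 2 (0.147), control replicate 3 (0.0527) or siControl RAS replicate 2 (0.304), and IFNAR1 was not called (0.24, adjusted p = 0.0681).

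METTL14 knockdown in RAS cells shifted 2 of the 9 genes, in opposite directions. STING1 fell and RIGI rose. Over all tested genes 15.5% were called, 7.47% higher and 8.06% lower, so the share among the 9 genes is near the background, and their median log2 difference was 0.06 against -0.0028 over all.

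STING1 had 22.1, 15.9 and 17.1 CPM in the knockdown, all below the 33.8, 42.0 and 32.6 CPM of siControl RAS. The log2 difference was -0.98 ± 0.19 (adjusted p = 2.69e-04), and all 10 alternatives kept the call. Against control cells, the knockdown level of STING1 was not called (-0.35, adjusted p = 0.169). RIGI had 84.3, 75.9 and 69.6 CPM, all above siControl RAS, and rose by 0.40 ± 0.13 (adjusted p = 0.0363). The RIGI call was lost without siControl RAS replicate 3 (0.28, adjusted p = 0.229), knockdown replicate 1 (0.33, 0.154) or knockdown replicate 2 (0.41, 0.0701).

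IRF1 lay just outside the threshold. Its 81.5, 69.0 and 61.2 CPM in the knockdown were all above siControl RAS, where the highest library had 61.0 CPM, and the log2 difference was 0.37 ± 0.13 (adjusted p = 0.0504). It was called with upper-quartile factors in place of TMM (adjusted p = 0.0309), without siControl RAS replicate 3 (0.0322) or without knockdown replicate 3 (0.0265). IRF9, at 25.8, 29.5 and 30.9 CPM, was also above every siControl RAS library but not called (0.27, adjusted p = 0.432). Genes without overlap between these groups, 4 of the 9 here, were 30.0% of all tested genes.

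The other 5 genes overlapped between knockdown and siControl RAS. STAT2 had 68.9, 65.7 and 68.3 CPM (0.19, 95% interval -0.08 to 0.46). IFIH1 had 10.4, 16.2 and 11.3 CPM (-0.29, interval -0.997 to 0.41), and IRF7 6.71, 8.33 and 7.39 CPM (-0.26, interval -1.03 to 0.51). CGAS had 5.28, 3.70 and 3.45 CPM (-0.36, adjusted p = 0.695) and IRF3 15.9 to 16.4 CPM (0.06, adjusted p = 0.906).

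**Figure D2:**
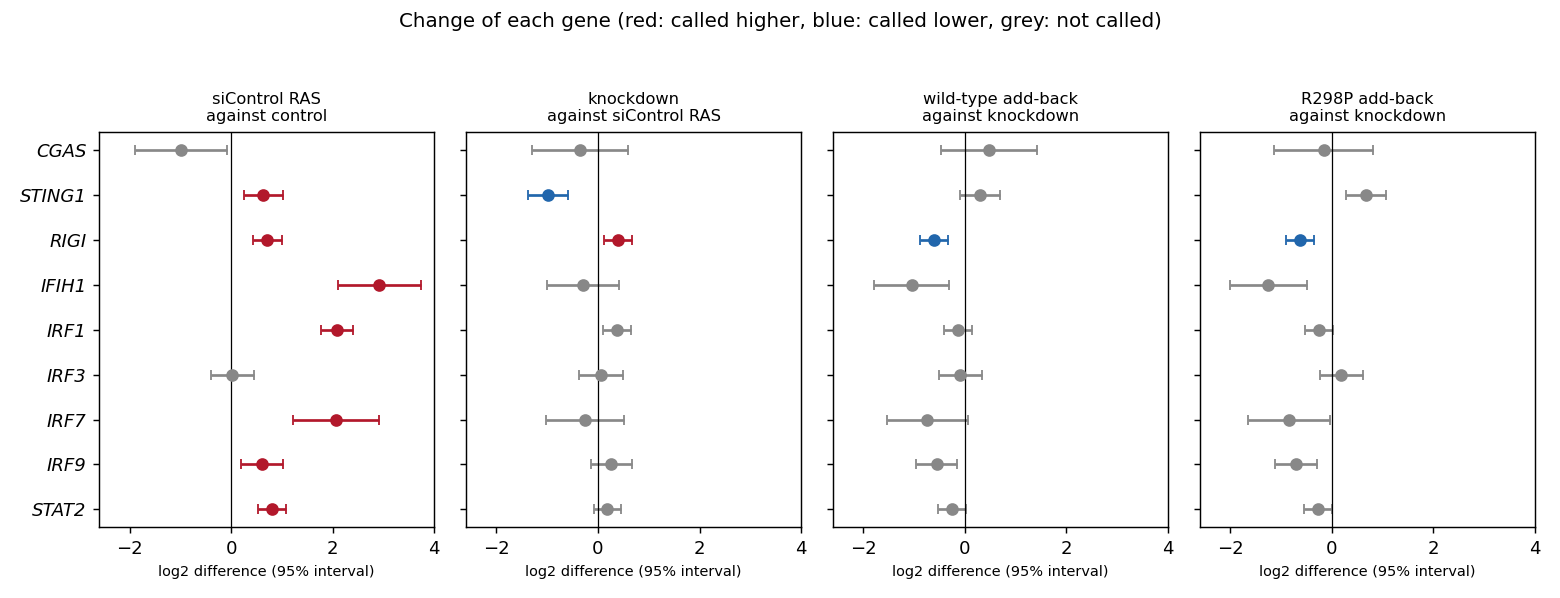
Log2 difference with its 95% interval for each of the 9 genes. The comparisons are siControl RAS against control, knockdown against siControl RAS and each add-back against knockdown. Points are red where called higher and blue where called lower at an adjusted p under 0.05, and grey otherwise. Of the 9 genes, 7 are called and lie to the right of 0 in siControl RAS against control. STING1 lies at -0.98 in knockdown against siControl RAS, and RIGI at -0.60 and -0.63 in the add-backs against knockdown.

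Against control cells, the knockdown libraries kept 6 of the 9 genes higher and had CGAS lower, where 19.2% of all tested genes were called higher and 16.7% lower. The 6 were IRF1 (2.46 ± 0.15), IFIH1 (2.62 ± 0.40, and 3.24 without control replicate 1), IRF7 (1.81 ± 0.42), RIGI (1.11 ± 0.14), STAT2 (0.99 ± 0.14) and IRF9 (0.88 ± 0.20), each called under all alternatives. IRF3 was not called (0.08, adjusted p = 0.801). CGAS was lower in every knockdown library than in every control library (-1.34 ± 0.45, adjusted p = 0.0189), but not called without control replicate 3 (-0.98, 0.148), knockdown replicate 2 (-1.27, 0.0645) or knockdown replicate 3 (-1.22, 0.0750). This comparison shares its control libraries with that of siControl RAS against control.

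When METTL14 was added back, RIGI fell relative to the knockdown with the wild-type protein and with R298P, and it was the only one of the 9 genes called in either comparison. Few genes were called at all here, 0.621% with the wild-type protein and 1.09% with R298P. Both comparisons use the same 3 knockdown libraries, so they are not independent of each other. METTL14 itself was far above its siControl RAS level in both add-backs, as given above, and the part of that excess in these values was not tested.

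RIGI had 43.2, 53.3 and 54.3 CPM with wild-type METTL14 and 52.5, 48.4 and 47.6 CPM with R298P, all below the lowest knockdown library at 69.6 CPM. The log2 differences were -0.60 ± 0.14 (adjusted p = 0.0193) and -0.63 ± 0.14 (adjusted p = 0.00888). Neither call was firm. The wild-type one was lost without knockdown replicate 1 (-0.53, 0.120), knockdown replicate 2 (-0.61, 0.0597), wild-type replicate 1 (-0.51, 0.216) or wild-type replicate 2 (-0.65, 0.0540). That with R298P was lost without knockdown replicate 1 (-0.56, 0.0550), R298P replicate 2 (-0.61, 0.0625) or R298P replicate 3 (-0.60, 0.0593).

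IFIH1 was also below every knockdown library, at 6.26, 5.09 and 7.14 CPM with wild-type METTL14 and 6.20, 3.58 and 6.29 CPM with R298P. The log2 differences of -1.04 ± 0.36 (adjusted p = 0.344) and -1.24 ± 0.37 (adjusted p = 0.107) did not pass, at 21 to 39 counts per add-back library. DESeq2 called the R298P difference of IFIH1 (adjusted p = 0.0411). Against siControl RAS, where IFIH1 had 14.2 to 16.5 CPM, it was called lower with the wild-type protein (-1.34 ± 0.36, adjusted p = 0.00998) and with R298P (-1.54 ± 0.37, adjusted p = 0.00338). The first of these was lost without wild-type replicate 2 (-1.21, 0.0603), and the second kept its call in all 10 alternatives. In these comparisons with siControl RAS, 6.67% and 7.14% of tested genes were called lower.

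STING1 had 28.9, 18.4 and 20.7 CPM with wild-type METTL14, which overlapped the knockdown (0.30, adjusted p = 0.804), and 29.4, 26.6 and 31.4 CPM with R298P, all above the knockdown (0.67 ± 0.19, adjusted p = 0.0945). The R298P difference was called only without knockdown replicate 1 (0.82, 0.0480). Measured from siControl RAS, STING1 was lower with the wild-type protein (-0.68 ± 0.19, adjusted p = 0.0124), unless siControl RAS replicate 2 (-0.56, 0.0934), wild-type replicate 2 (-0.54, 0.100) or wild-type replicate 3 (-0.62, 0.0645) was left out. With R298P the difference from siControl RAS was -0.31 (adjusted p = 0.330). The add-backs themselves differed in STING1 by 0.37 in log2, R298P minus wild-type, with a 95% interval from -0.02 to 0.76 (adjusted p = 1).

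Of the factors, IRF7 had 3.64, 4.34 and 5.45 CPM with wild-type METTL14 and 4.93, 4.09 and 3.45 CPM with R298P, below every knockdown library (6.71 CPM and up). Its differences from the knockdown were -0.74 ± 0.39 (adjusted p = 0.707) and -0.84 ± 0.39 (adjusted p = 0.518). Against siControl RAS they were -0.99 ± 0.39 (adjusted p = 0.0948) and -1.10 ± 0.39 (adjusted p = 0.0597), the latter called by DESeq2 (0.0355) and without siControl RAS replicate 3 (-1.31, 0.0401). IRF1 stayed high, with 67.9, 56.3 and 69.1 CPM and 58.7, 61.2 and 58.2 CPM, and was not called against the knockdown (-0.13, adjusted p = 0.922, and -0.25, adjusted p = 0.636). IRF3 had 14.2 to 16.0 CPM with the wild-type protein (-0.09, adjusted p = 0.985) and 17.5 to 20.1 CPM with R298P, where each library was above those of the knockdown (0.19, adjusted p = 0.884).

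Neither IRF9 nor STAT2 was called by edgeR in the add-backs against the knockdown. IRF9 had 17.8, 25.0 and 15.6 CPM with wild-type METTL14 and 20.2, 18.7 and 13.8 CPM with R298P, all below the knockdown, with differences of -0.56 ± 0.20 (adjusted p = 0.377) and -0.70 ± 0.20 (adjusted p = 0.0918, 0.0485 in DESeq2). STAT2 had 45.1, 64.5 and 61.1 CPM and 56.9, 55.0 and 56.0 CPM, also below every knockdown library but by only -0.25 (adjusted p = 0.717) and -0.27 (adjusted p = 0.553).

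CGAS overlapped the knockdown in both add-backs, at 6.06, 9.13 and 1.88 CPM with wild-type METTL14 (0.48 ± 0.46, adjusted p = 0.918) and 4.29, 2.56 and 4.26 CPM with R298P (-0.16 ± 0.48, adjusted p = 0.970). Against siControl RAS the remaining 6 genes were not called in either add-back. With the wild-type protein the log2 differences were 0.12 for CGAS, -0.20 for RIGI, 0.24 for IRF1, -0.03 for IRF3, -0.29 for IRF9 and -0.06 for STAT2, with overlap in each. With R298P they were -0.52 for CGAS, -0.23 for RIGI, 0.13 for IRF1 and -0.09 for STAT2, again with overlap. IRF9 was below every siControl RAS library with R298P (-0.44 ± 0.20, unadjusted p = 0.0388, edgeR adjusted p = 0.176), and IRF3 was above every one (0.25 ± 0.21, adjusted p = 0.518).

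In all, 5 of the 9 genes (RIGI, IFIH1, IRF7, IRF9 and STAT2) had every wild-type library below every knockdown library, which held for 6.47% of tested genes. With R298P these 5 and IRF1 did, and STING1 and IRF3 had every library above, where the shares over all tested genes were 7.35% lower and 7.66% higher.

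Between the add-backs, wild-type against R298P METTL14, edgeR called none of the 9 genes. None had an unadjusted p under 0.05 in edgeR, which 665 of the 13516 tested genes had. DESeq2 called none of the 9, and edgeR called 0.0222% of all tested genes. The 95% intervals of R298P minus wild-type were -0.30 to 0.26 for RIGI, -0.30 to 0.25 for STAT2, -0.57 to 0.27 for IRF9 and -0.39 to 0.15 for IRF1, so larger differences in these are outside their intervals. For IFIH1 (-0.98 to 0.58) and IRF7 (-0.93 to 0.72) the intervals leave room for differences near 1 in log2, and for CGAS (-1.58 to 0.32) for larger ones. IRF3 was the only one of the 9 without overlap, higher with R298P by 0.28, and 11.7% of all tested genes had no overlap here in either direction.

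Placed in order of their group means, the 9 genes gave different sequences of groups. The knockdown stood first for RIGI (76.6 ± 7.39 CPM, SD, n = 3), IRF1 (70.6 ± 10.2), STAT2 (67.6 ± 1.67) and IRF9 (28.7 ± 2.61), and siControl RAS for STING1 (36.1 ± 5.09), IFIH1 (15.5 ± 1.16) and IRF7 (8.95 ± 2.64). Control stood last for 6 genes. In RIGI, IFIH1, IRF1, IRF7 and STAT2 no control library reached any RAS library, while in IRF9 the control libraries (14.99 to 16.1 CPM) overlapped those of both add-backs. CGAS was the reverse, with control first at 10.5 ± 4.76 CPM and every neighbouring pair in the order overlapping. For IRF3 the R298P add-back came first (18.5 ± 1.35 CPM), apart from the knockdown next to it, and the 4 other groups overlapped one with the next. In STING1 the siControl RAS, R298P and control groups followed each other without overlap, and control (23.3 ± 1.55), wild-type add-back (22.7 ± 5.52) and knockdown (18.4 ± 3.32) overlapped in turn.

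The rest of the pathway was read from lists of related genes. Among 14 other sensors, 8 were tested and 7 were higher in siControl RAS than in control, with a list median of 1.66 in log2, where 24.0% of all tested genes were called higher. OAS3, which makes the 2-5A signal for RNase L, rose by 2.65 ± 0.27, DDX60 by 2.43 ± 0.28 and the kinase EIF2AK2 (PKR) by 0.89 ± 0.09. OAS1 and OAS2 had 1 to 3 counts in control and are not given as folds. In the knockdown 1 of the 8 was called, ZNFX1, at 0.38 ± 0.09 above siControl RAS, against 15.5% of all tested genes. Against the knockdown, 4 of the 8 fell with wild-type METTL14 and 5 with R298P, where 0.621% and 1.09% of all tested genes were called. Among them were OAS2 (-2.28 ± 0.37 and -2.11 ± 0.36) and OAS3 (-1.40 ± 0.26 and -1.33 ± 0.26). The mean of OAS1 was 7.52 CPM in the knockdown, 1.81 CPM with wild-type METTL14 and 2.35 CPM with R298P. The OAS3 calls were lost without knockdown replicate 1 (adjusted p = 0.0774 and 0.0599), wild-type replicate 2 (0.112) or 3 (0.107) and R298P replicate 1 (0.0943) or 3 (0.0887). The wild-type count of 4 was 2 without knockdown replicate 1 or 2 and 1 without wild-type replicate 3, and the R298P count of 5 was 3 without knockdown replicate 1. Measured from siControl RAS, 5 of the 8 were called lower with wild-type METTL14 and 6 with R298P, and 0 higher. Over all tested genes 6.67% and 7.14% were called lower there.

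**Figure D3:**
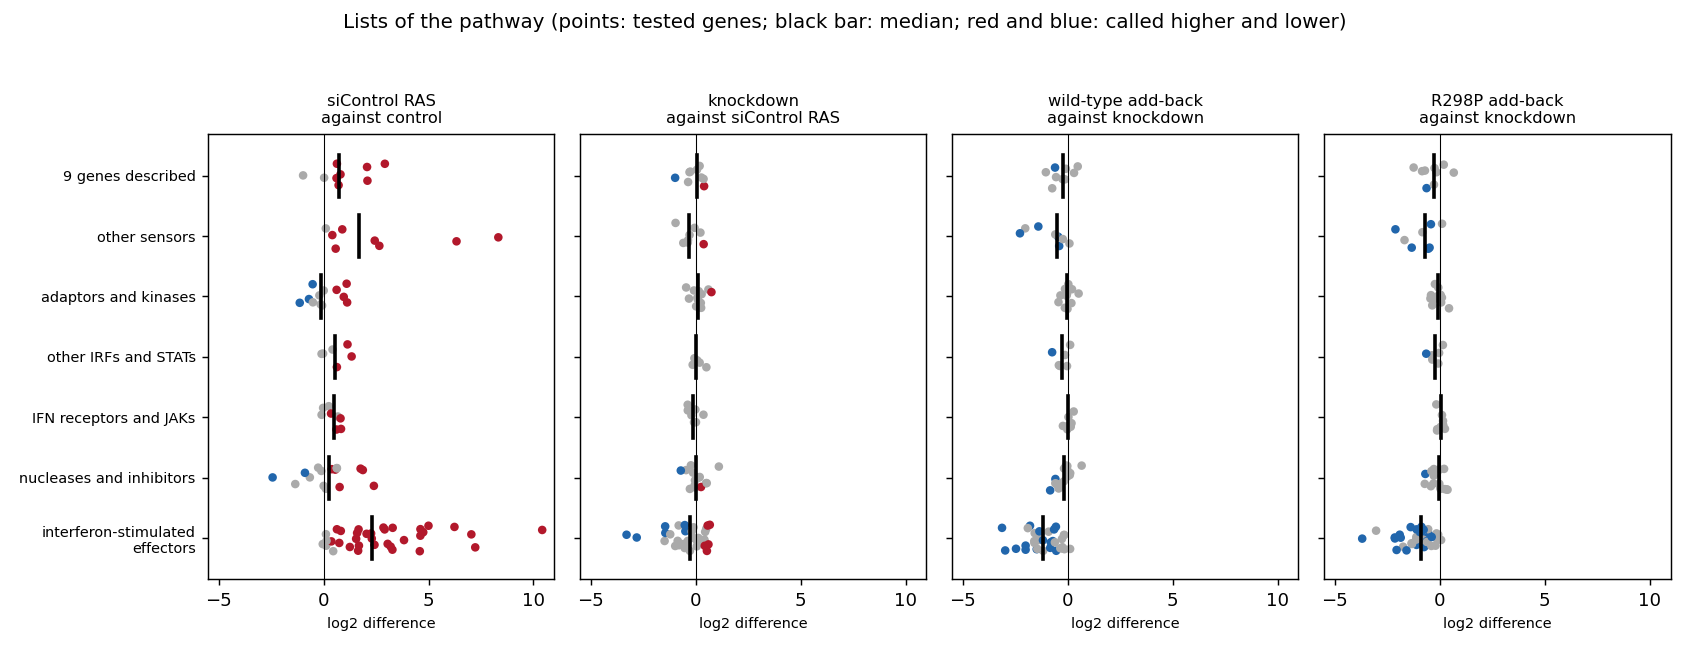
Log2 difference of each tested gene of the pathway lists, by comparison, with the median of each list. The interferon-stimulated effectors have medians of 2.29 in siControl RAS against control, -0.28 in knockdown against siControl RAS and -1.18 and -0.87 in the add-backs against knockdown, and those of the adaptors and kinases lie between -0.11 and 0.13 in the same 4 comparisons.

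The adaptors and kinases between sensor and factor, 12 of 13 tested, moved both ways with RAS, 4 higher and 3 lower, with a median of -0.11, and these shares are near the 24.0% of all tested genes called higher and the 45.9% called in either direction. TBK1, the kinase of IRF3, rose by 0.96 ± 0.22 (adjusted p = 4.94e-04) and its scaffold TANK by 1.09 ± 0.20. ZDHHC1, a partner of STING1, was called higher at 1.12 ± 0.44 (adjusted p = 0.0368). That call was lost with no filter on low counts (0.0754) and without control replicate 1 (0.104) or 3 (0.135) or siControl RAS replicate 1 (0.0714) or 3 (0.115). MAVS, the adaptor of RIG-I and MDA5, was lower by -0.70 ± 0.23 (adjusted p = 0.0123), a call lost without control replicate 1 (-0.57, 0.0729) or 2 (-0.62, 0.0558). MYD88 fell by 1.14 and TRIM25, a ubiquitin ligase that activates RIG-I, by 0.53. TRIM25 was also the 1 gene of this list called in the knockdown, where it rose by 0.75 ± 0.11 (adjusted p = 1.65e-06) and 15.5% of all tested genes were called. Against the knockdown, edgeR and DESeq2 called none of the 12 in either add-back, where edgeR called 0.621% and 1.09% of all tested genes. In edgeR, 1 of the 12 with wild-type METTL14 and 2 with R298P had an unadjusted p under 0.05. Of the 13516 tested genes, 1021 and 1220 had such a p.

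Of 8 tested receptor and JAK genes 4 rose with RAS, against 24.0% of all tested genes, among them IL10RB (0.83 ± 0.14), IFNGR2 (0.80 ± 0.15) and JAK1 (0.35 ± 0.07), whereas TYK2 was not called (-0.10, adjusted p = 0.594). In the knockdown edgeR and DESeq2 called none of the 8, where edgeR called 15.5% of all tested genes. Of the 8, 3 had an unadjusted p under 0.05 in edgeR, as did 3583 of the 13516 tested genes. Among the other IRFs and STATs, the repressor IRF2 (1.14 ± 0.21) and STAT3 (0.63 ± 0.10) rose with RAS. No gene of that list had an unadjusted p under 0.05 in the knockdown or was called there by edgeR or DESeq2.

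Nucleases that remove stray nucleic acid and inhibitors of the pathway were tested in 16 genes, of which 6 rose and 2 fell with RAS, a share near the 45.9% of all tested genes called in either direction. SOCS1, an inhibitor of JAK kinases, rose by 2.39 ± 0.35, USP18, which holds down IFNAR2 signalling, by 1.87 ± 0.19, and SAMHD1, a dNTP hydrolase, by 1.76 ± 0.12. RNASEH2A, a subunit of the enzyme that cuts RNA in RNA–DNA hybrids, fell by 2.43 in log2 (by 3.08 without siControl RAS replicate 1), and BANF1, which shields DNA from cGAS, fell by 0.89. In the knockdown SOCS3 fell by 0.71 and PTPN11 was called higher at 0.25 ± 0.07, unless siControl RAS replicate 2 (adjusted p = 0.108) or knockdown replicate 2 (0.0549) was left out. Against the knockdown, SAMHD1 was lower with wild-type METTL14 (-0.59 ± 0.12, not called without wild-type replicate 1, adjusted p = 0.0561) and with R298P (-0.68 ± 0.12). USP18 was lower with the wild-type protein (-0.84 ± 0.19, adjusted p = 0.0212), a call lost without knockdown replicate 1 (0.149) or 2 (0.0513) or any of the wild-type replicates (0.0505, 0.0813 and 0.169).

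Downstream, 30 of 35 tested interferon-stimulated effectors rose with RAS, against 24.0% of all tested genes, the median log2 difference being 2.29. By the fitted value the first of those with counts in control were IFI27 (7.22 ± 0.23), XAF1 (6.23 ± 0.29) and IFI6 (4.99 ± 0.08), and BST2 and RSAD2 had no count in the control libraries. In the knockdown 5 effectors rose and 6 fell against siControl RAS, where 7.47% of all tested genes were called higher and 8.06% lower. The largest falls were those of BST2 (tetherin), by 3.30 (by 4.11 without knockdown replicate 3), IFI27, by 2.81, and IFI6, by 1.45. IFI44L had the same fitted fall of 1.45, but its call was lost without siControl RAS replicate 1 (adjusted p = 0.0567) or 2 (0.0631) or knockdown replicate 1 (0.0710) or 2 (0.0510). The guanylate-binding proteins GBP1 (0.67 ± 0.09) and GBP2 (0.61 ± 0.12) rose. SAMD9L was called at 0.57 ± 0.19, but leaving out siControl RAS replicate 1 (0.176), siControl RAS replicate 2 (0.145), knockdown replicate 2 (0.0813) or knockdown replicate 3 (0.127) ended the call.

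With the add-backs 16 effectors fell against the knockdown with wild-type METTL14 and 18 with R298P, and the list medians were -1.18 and -0.87. Over all tested genes 0.621% and 1.09% were called. IFI44L (-3.13 ± 0.55, and -5.05 without wild-type replicate 2) and the antiviral GTPase MX1 (-2.98 ± 0.32) fell most with the wild-type protein. With R298P the lead was MX2 (-3.69 ± 0.79), not called without R298P replicate 1 (-3.29, 0.0943) or 3 (-3.42, 0.0816) and at -4.80 without R298P replicate 2, followed by MX1 (-2.14 ± 0.29). The effectors were also below siControl RAS in both add-backs, with list medians of -1.37 for the wild-type protein and -1.14 for R298P. In each of these comparisons 21 of the 35 were called lower and 2 higher. Over all tested genes 6.67% and 7.14% were called lower there. Between the add-backs, edgeR and DESeq2 called none of the 35, where edgeR called 0.0222% of all tested genes. Of the 35, 3 had an unadjusted p under 0.05 in edgeR, as did 665 of the 13516 tested genes.

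The genes closest in pattern to each of the 9 were found by the root-mean-square difference of log2 CPM, each gene centred on its own mean over the 15 libraries, among 10180 genes with a mean of at least 5 CPM. For the sensors these were IFI16 (0.171) and SP100 (0.194) for RIGI and OAS3 (0.402) and CRH (0.502) for IFIH1, against medians over all candidates of 0.493 and 1.19. STING1 was closest to OGFRL1 (0.222) and LCE2C (0.223), and CGAS to QTRT2 (0.392) and ADGRL4 (0.434), against medians of 0.495 and 0.767. Among the factors, IRF1 was closest to HGF (0.153) and DRAM1 (0.154), IRF3 to PGD (0.0941) and SSU72 (0.104), and IRF7 to RGS17 (0.295) and SAMHD1 (0.325). The medians over all candidates were 0.9597 for IRF1, 0.3393 for IRF3, the lowest of the 9, and 0.8005 for IRF7. IRF9 was nearest to GSTA4 (0.196) and EIF2AK2 (0.200), and STAT2 to PSME2 (0.128) and TRIP11 (0.139), against medians of 0.4751 and 0.4755. These distances share the 15 libraries and their depths, and CGAS, IFIH1 and IRF7, which have the fewest counts of the 9, have the farthest nearest genes.

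Some of the 9 genes overlap another gene in the GENCODE 29 annotation, and whether the counting used strand is not stated. IRF3 overlaps BCL2L12 (4399 counts over all libraries) and IRF1 overlaps C5orf56 (1352 counts), both on the opposite strand, IRF1 also overlaps AC116366.3 on that strand (not analysed here), CGAS overlaps DDX43 (10 counts) on the opposite strand, and IRF9 overlaps AL136295.5 (75 counts) and STAT2 overlaps RNU7-40P (0 counts), each on its own strand. Reads from such pairs cannot be told apart with certainty, and the values of these 5 genes carry that limit.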

How the data were processed

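QuantSeq libraries (Lexogen), which read the 3′ end of each mRNA, were made from the 15 samples, per the labels' protocols. The authors deposited 1 table of whole-number read counts per Ensembl gene, not normalised. The submitters' processing notes list Bowtie2, RSEM 1.2.12 and hg19, with no role for any of them. RSEM can give fractions of a read. Not given in the sources used here were any rounding, the annotation, the filters, the use of strand, and whether control or siControl RAS cells had a lentiviral vector. Tags at the 3′ end do not count a long transcript more often, and cannot tell isoforms apart that end alike.

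Symbols were matched by Ensembl ID for 52301 genes (90.59%). Of 144 genes in 11 lists of pathway and cell type genes, 142 matched; IKBKE and PECAM1 did not. The 9 genes, the lists and the tests were chosen with earlier results of these data known. All libraries were fitted in 1 edgeR 4.0.16 model (R 4.3.3) of 5 groups with TMM factors, the default filter on low counts and the robust quasi-likelihood F test, on 10 residual degrees of freedom, over 13516 genes that hold 99.82% of counts. The biological coefficient of variation was 16.7%. Intervals are 95% and the SE is the log2 difference over the square root of F. The text names all 9 genes in every comparison, METTL14, the main receptors, kinases and adaptors, up to 3 called genes per direction and list with the largest difference (2 in the add-back comparisons), and 2 genes of nearest pattern each, with a prior count of 2. Some genes under this rule are not reported here. Further examples were chosen after their values were seen. Alternatives were DESeq2 1.42.0, upper-quartile factors, no filter, the replicate number as a block, and each library left out. Promoters come from a RefSeq table cut to 250 bases before the start, so that no transcribed base is included.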

Additional observations from a re-analysis of the deposited data

How the results depend on the processing

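Of 21 calls among the 9 genes over 8 comparisons, all 21 kept their direction and side of the threshold under each of DESeq2, upper-quartile factors, no filter on low counts and the replicate block, while leaving out single libraries gave 109 kept and 17 lost. DESeq2 called 3 genes in place of 1 for R298P add-back against knockdown and 2 in place of 1 for R298P add-back against siControl RAS. With single libraries left out, the number called was 7 to 8 for siControl RAS against control, 1 to 3 for knockdown against siControl RAS, 0 to 1 for each add-back against knockdown, 0 to 2 for wild-type and 1 to 2 for R298P add-back against siControl RAS, 6 to 7 for knockdown against control and 0 between the add-backs. No call of the 9 genes changed when replicate number was fitted as a block. Over 30 pairs with 1 number, the correlation of deviations from the group means was -0.0541 to 0.0681. By the mean of this correlation, 8 of 15 libraries were closest to those of their own number in other groups. These values do not settle whether the numbers mark a shared culture or day.

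All results that changed sign were uncalled. With upper-quartile factors IRF3 was at -0.015 for siControl RAS against control and at 0.000435 for wild-type add-back against siControl RAS. With single libraries left out, the log2 difference ran from -0.049 to 0.087 for IRF3 and -0.088 to 0.15 for METTL14 in siControl RAS against control, from -0.062 to 0.89 for CGAS in wild-type and -0.28 to 0.054 in R298P add-back against knockdown, and, against siControl RAS, from -0.42 to 0.53 for CGAS, -0.085 to 0.025 for IRF3 and -0.16 to 0.082 for STAT2 with the wild-type protein and from -0.16 to 0.040 for STAT2 with R298P. Between the add-backs it ran from -0.12 to 0.033 for RIGI, -0.33 to 0.023 for IFIH1, -0.24 to 0.059 for IRF7, -0.28 to 0.081 for IRF9 and -0.17 to 0.075 for STAT2. The cause of these changes was not tested. Upper-quartile factors moved the median of all genes by at most 0.0373 in log2 and turned the balance of all called genes from 3241 higher and 2960 lower to 3073 and 3169 for siControl RAS against control, and from 1010 and 1090 to 1168 and 970 for knockdown against siControl RAS. CGAS, IFIH1 and IRF7 had the fewest counts of the 9, which limits their precision, and IFIH1 had as few as 3 counts in a control library.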
